A study of Mus musculus with 12 samples.

Results

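Shelterin is the protein complex that coats the telomere, and its genes were compared here between hippocampi of MSN and ICR mice. The members were the 7 mouse genes Terf1, Terf2, Terf2ip, Tinf2, Acd, Pot1a and Pot1b, taken by their symbol in the platform annotation. Each had 1 transcript cluster, the set of probes that the Mouse Gene 1.0 ST array carries along a transcript, so that the family made up 7 of 21789 clusters with a single gene. MSN (Madison) is an inbred strain that was derived from the outbred hsd:ICR stock and shows a manic phenotype, and ICR is its ancestor and control. The ancestors of MSN were selected for high wheel running and then to keep high maternal defense. Later they were bred without selection. All animals were adult males, 6 of each strain, with no treatment or engineered allele, and the total RNA of each macrodissected hippocampus was hybridized to an array of its own. MSN is 1 line, so that what was selected in it and what it came to carry by other routes cannot be told apart, and nothing in the labels ties mice of the strains to shared litters.

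Mouse telomeres end in long arrays of the repeat TTAGGG, and shelterin keeps the cell from reading these ends as broken DNA. The proteins of Terf1 (TRF1) and Terf2 (TRF2) bind the double-stranded repeat, those of Pot1a and Pot1b bind the single-stranded overhang, and those of Tinf2 (TIN2), Acd (TPP1) and Terf2ip (RAP1) join them or ride on them. TPP1 also brings telomerase to the chromosome end. Most hippocampal cells no longer divide, apart from progenitors in the dentate gyrus and glial precursors.

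RefSeq promoters (300 bases around the start site, build GRCm38.p6) were matched for 6 of the 7 genes. The short stretches below are shown because they place the telomeric repeat and 2 motifs that members share in the promoters of genes whose array values follow. The motifs are in capitals, and each line reads 5′ to 3′ on the minus strand, from which these genes are read.
Pot1b, chr17:55712745-55712772: agaaaaatccaTTAGGGgcgtggaaaga
Pot1a, chr6:25809207-25809236: gcgcgcgtgcaTGACGTCAcaggcgcctag
Tinf2, chr14:55681855-55681884: aggggacctcgTGACGTCAcagctccctcc
Pot1a, chr6:25809247-25809276: ctagcggagtaCGCATGCGtgaactaagct
Pot1b, chr17:55712607-55712636: tggttggagtgCGCATGCGtgtgtcccacg
TTAGGG or its reverse complement CCCTAA stood in 10.6% of all 32851 promoters of this length. Of the 6 matched members only Pot1b held it, and Terf1 had no promoter to search. TGACGTCA, the palindrome known as the full cyclic AMP response element, stood in 1.79% of promoters. Pot1a and Tinf2 held it, with its first base 7 bases (Pot1a) and 56 bases (Tinf2) before the start site. The palindrome CGCATGCG, part of the motif of nuclear respiratory factor 1, stood in 1.87% of promoters and in both Pot1 paralogs. The promoters of Terf2, Terf2ip and Acd held none of the 3. The last 2 motifs were chosen after the members' promoters had been read, no motif overlaps another, and a match describes letters and not binding.

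None of the 7 shelterin genes passed the test between the strains. All 7 had a log2 fold change (MSN over ICR) below 0 on the arrays as deposited, from -0.14 in Tinf2 to -0.02 in Pot1a, with a median of -0.07. Among all 23410 clusters with a gene, 54.5% were below 0 and the median was -0.008. Log2 was taken of the intensity plus 16, limma was fitted over all these clusters with Benjamini-Hochberg adjustment, and calls were made where the adjusted p stayed below 0.05. By limma 0 of 7 members were called, against 0.777% of all clusters (182, with 0.303% higher and 0.474% lower in MSN mice). At an unadjusted p under 0.05 the family held 1 gene, Terf1, where the share among all clusters was 12.7%.
Directions depended in part on how the arrays were scaled. Both other scalings were computed over all 35556 clusters, those without a gene included. The median intensity over all these clusters was 270.2 to 293 in MSN mice and 283 to 298 in ICR mice. With each array scaled to the same median, 6 of 7 members and 40.5% of all clusters were below 0, and Pot1a turned to 0.003. With quantile normalization it was 7 of 7 members and 44.6% of all clusters. These scalings also turned the balance of calls over all clusters, of which 39.0% were higher in MSN mice as deposited, 56.4% with the same median and 54.6% with quantile normalization.

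**Figure D1:**
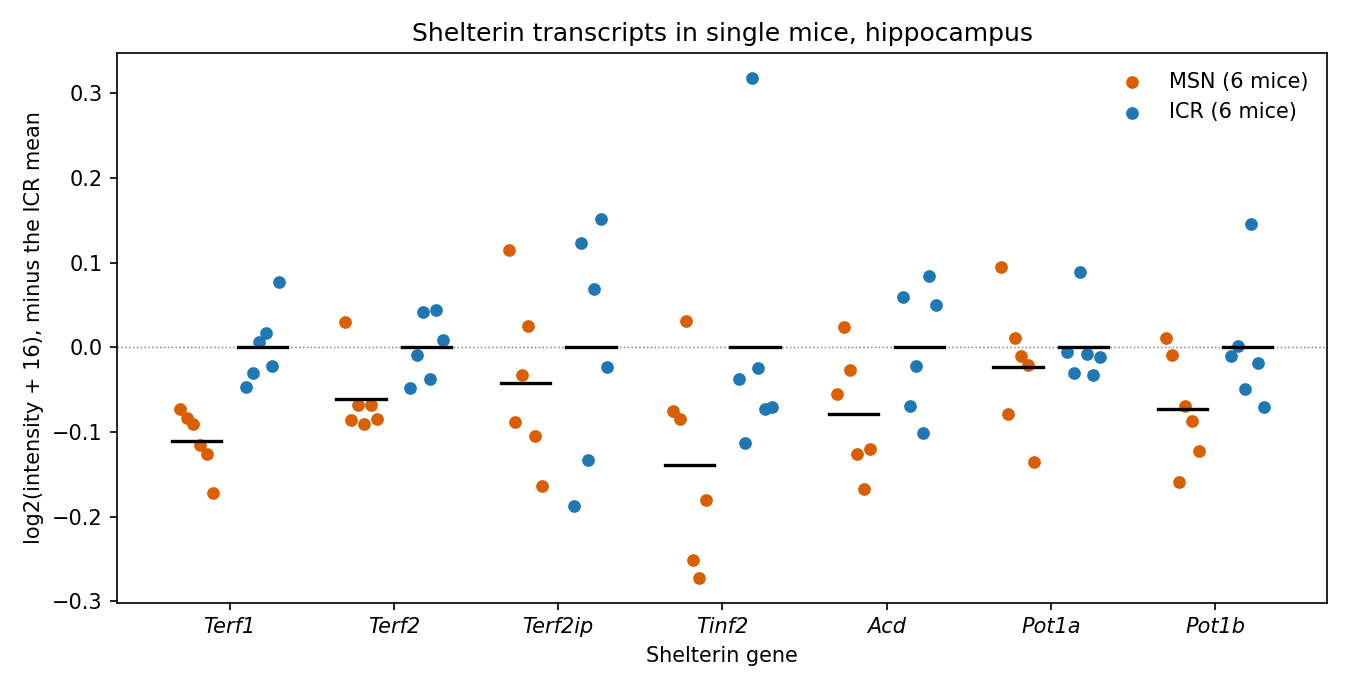
Each point is 1 mouse, placed on the y axis by its log2(intensity + 16) relative to the ICR average of that gene, with MSN mice in orange left of ICR mice in blue and black lines at the means. Only in Terf1 do the 6 MSN points all lie below the 6 ICR points, and in Tinf2 1 ICR mouse stands far above the rest.

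Across the series, 12 arrays were measured, with a median intensity of 373 to 384 in MSN mice and of 379 to 389 in ICR mice over the clusters with a gene. Any 2 arrays of a strain correlated at 0.992 to 0.997, and arrays of different strains at 0.992 to 0.996. Defining hippocampal markers were present, as Prox1 of granule cells averaged 1326 ± 64.7 in MSN mice and 1177 ± 185 in ICR mice, and Wfs1 of CA1 pyramidal cells 2783 ± 201 in MSN mice and 2485 ± 303 in ICR mice (SD, n = 6 each). Prox1 was not called (log2 fold change 0.18, limma adjusted p = 0.4). Of the 5 granule cell markers 3 were below 0, and the median of that list was -0.04. Mki67 of dividing cells read 110.5 ± 5.75 in MSN mice and 113 ± 8.86 in ICR mice (SD, n = 6 each). Of 58 markers measured over 12 lists, 2 were called, both higher in MSN mice, against 0.777% of all clusters called. The first was Pdgfra of oligodendrocyte precursors (1.20-fold, limma adjusted p = 0.0184), a list whose 4 of 4 markers were above 0 and whose summed intensity was 2740.1 to 3041 in MSN mice and 2457 to 2710.3 in ICR mice. Most of that gap lay in Pdgfra itself (1147 ± 45.0 in MSN mice and 958 ± 60.0 in ICR mice, SD, n = 6 each), and the other markers of the list had limma adjusted p values of 0.468 to 0.716. The second was Bok, listed with pyramidal cells (1.28-fold, limma adjusted p = 0.0305), where 5 of 6 markers were above 0 and the sum was 10397 to 11905 in MSN mice and 9549 to 11147 in ICR mice. Of 6 astrocyte markers 0 were called and 4 were below 0, with Gfap at -0.30 (limma adjusted p = 0.101) and Aqp4 at -0.23 (limma adjusted p = 0.148), while Aldh1l1 was at 0.19 (limma adjusted p = 0.187), and the sum was 13490 to 15010.2 in MSN mice and 14412 to 16732 in ICR mice. Of 6 choroid plexus and ependyma markers 0 were called and 0 were below 0, with a median of 0.29. Their sum varied widely between mice, from 8975 to 21357 in MSN mice and from 7476 to 21247 in ICR mice. Of 5 oligodendrocyte markers measured, 0 were called and 0 were below 0, with a median of 0.07. The part of these markers in the shelterin values was not tested. In RNA of a whole tissue, fewer cells of a type and less RNA per cell cannot be told apart.

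Terf1 was the member that separated the strains best. Its protein TRF1 lies along the double-stranded repeat and helps the replication fork pass through it. The 6 MSN mice ran from 399 through a median of 419 to 429, and the 6 ICR mice from 437 through 449 to 477. Every MSN value lay below every ICR value, which held for 0.867% of all clusters, while 1.44% were free of overlap in either direction. Mean intensity was 417 ± 10.9 in MSN mice and 452 ± 14.5 in ICR mice (SD, n = 6 each), and MSN mice were 7.35% lower on the log2 scale turned back to a ratio. The log2 fold change was -0.11 (95% interval -0.18 to -0.04), and limma gave an unadjusted P-value of 0.00444 and an adjusted p = 0.156, which put Terf1 at place 668 of the 23410 clusters. A two-sided exact permutation test of the 6 against 6 mice gave p = 0.00216, the smallest that this design allows, before any adjustment for the number of genes.
The separation of Terf1 depended on how the arrays were scaled, here over all clusters, with or without a gene. With quantile normalization the MSN mice ran from 399.6 to 429 and the ICR mice from 427 to 473, and 3 MSN mice were still below all ICR mice (log2 fold change -0.08, limma adjusted p = 0.259). With arrays scaled to the same median the ranges were 394 to 439 in MSN mice and 424 to 470 in ICR mice. Again 3 MSN mice lay below all ICR mice (log2 fold change -0.08, limma adjusted p = 0.417). MSN replicate 5, the array with the lowest median over all clusters (270.2), went from 412 to 439. Scaling by the clusters with a gene alone was not tested. Set within each array against the mean of the other 6 members, Terf1 stood at -0.33 ± 0.0288 on the log2 scale in MSN mice and at -0.29 ± 0.0512 in ICR mice (SD, n = 6 each). These within-array values overlapped, from -0.38 to -0.30 in MSN mice and from -0.34 to -0.20 in ICR mice.

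**Figure D2:**
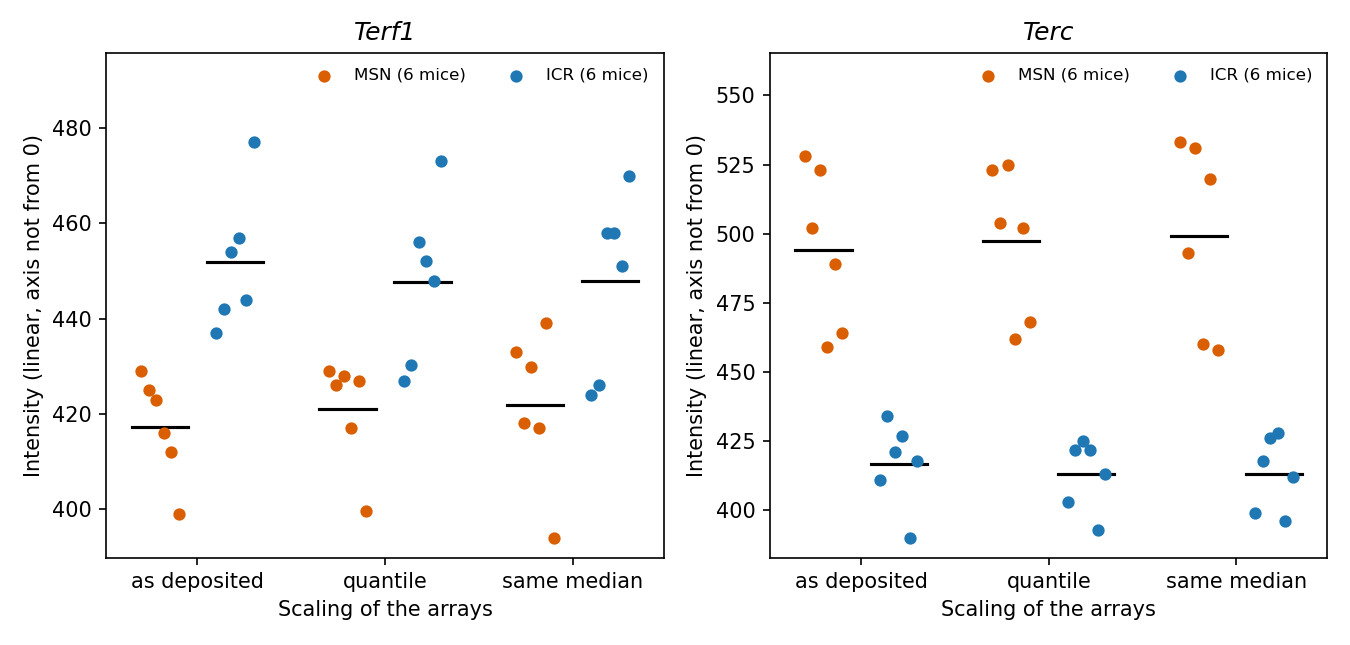
Intensities of Terf1 (left) and of the telomerase RNA gene Terc (right) in single mice under 3 scalings of the arrays on the x axis, with MSN mice in orange, ICR mice in blue, black lines at the means and y axes that do not start at 0. Terf1 values of the strains overlap under 2 of the scalings, while Terc stays apart under all 3.

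Terf2, whose protein TRF2 shapes the protective telomere loop and blocks the ATM damage kinase, leaned the same way. MSN mice ran from 726 through a median of 734 to 791 and ICR mice from 748 through 774 to 799. Of the 6 MSN mice 5 lay below all ICR mice, and MSN replicate 1, at 791, was among the ICR values. The log2 fold change was -0.06 (95% interval -0.13 to 0.01), limma gave an unadjusted p of 0.0856 and an adjusted p of 0.475, and the exact permutation test a two-sided p = 0.039 before adjustment. With arrays scaled to the same median 2 MSN mice lay below all ICR mice and the log2 fold change was -0.04 (limma adjusted p = 0.78).
Terf2ip encodes RAP1, which reaches telomeres through TRF2 and also acts away from them as a regulator of transcription. It read 807 to 983 with a median of 869 in MSN mice and 794 to 1009 with a median of 922 in ICR mice, so that the MSN range lay inside the ICR range. Its log2 fold change was -0.04 (95% interval -0.18 to 0.10, limma adjusted p = 0.83), and it was -0.08 without ICR replicate 1 and -0.01 without ICR replicate 5.

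Tinf2 encodes TIN2, the hub that ties TRF1 and TRF2 to TPP1. MSN mice ran from 315 through 349 to 392 and ICR mice from 353 through 369 to 482. Its log2 fold change of -0.14 was the lowest of the family but also had the widest interval (-0.29 to 0.02, limma adjusted p = 0.456). ICR replicate 3, at 482, stood well above the next ICR mouse at 377, and without it the fold change was -0.08 (limma adjusted p = 0.586).
Acd, the gene of TPP1, read 448 to 514 with a median of 474 in MSN mice and 469 to 536 with a median of 510.0 in ICR mice. In this gene 3 MSN mice lay below all ICR mice and 3 ICR mice above all MSN mice (log2 fold change -0.08, 95% interval -0.17 to 0.02, limma adjusted p = 0.499). The annotated gene overlaps Pard6a and Carmil2 in RefSeq, which had log2 fold changes of 0.00 and -0.01 (limma adjusted p = 0.983 and 0.897). Other annotated genes also overlap Tinf2 (Gmpr2), Terf2, Terf2ip and Pot1b, and their values were not compared here.

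Pot1a and Pot1b are rodent paralogs that stand for the POT1 gene of humans. In mouse, POT1a holds down damage signaling by ATR, and POT1b limits trimming of the strand that leaves the overhang. Pot1a was the member nearest to no difference, with 828 to 974 and a median of 901 in MSN mice and 890.0 to 969 and a median of 904 in ICR mice (log2 fold change -0.02, 95% interval -0.11 to 0.06, limma adjusted p = 0.853). Its MSN mice reached both below and above the ICR mice, and the log2 fold change was -0.05 without MSN replicate 1 and -0.001 without MSN replicate 6.
Pot1b read 209 to 238 with a median of 222 in MSN mice and 224 to 262 with a median of 233 in ICR mice. Of the 6 MSN mice 3 lay below all ICR mice, and the log2 fold change was -0.07 (95% interval -0.17 to 0.02, limma adjusted p = 0.522). It was -0.04 without ICR replicate 4, the highest ICR mouse (limma adjusted p = 0.713), and -0.05 with arrays scaled to the same median (limma adjusted p = 0.72). Whether any probe matches both paralogs was not tested.

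**Figure D3:**
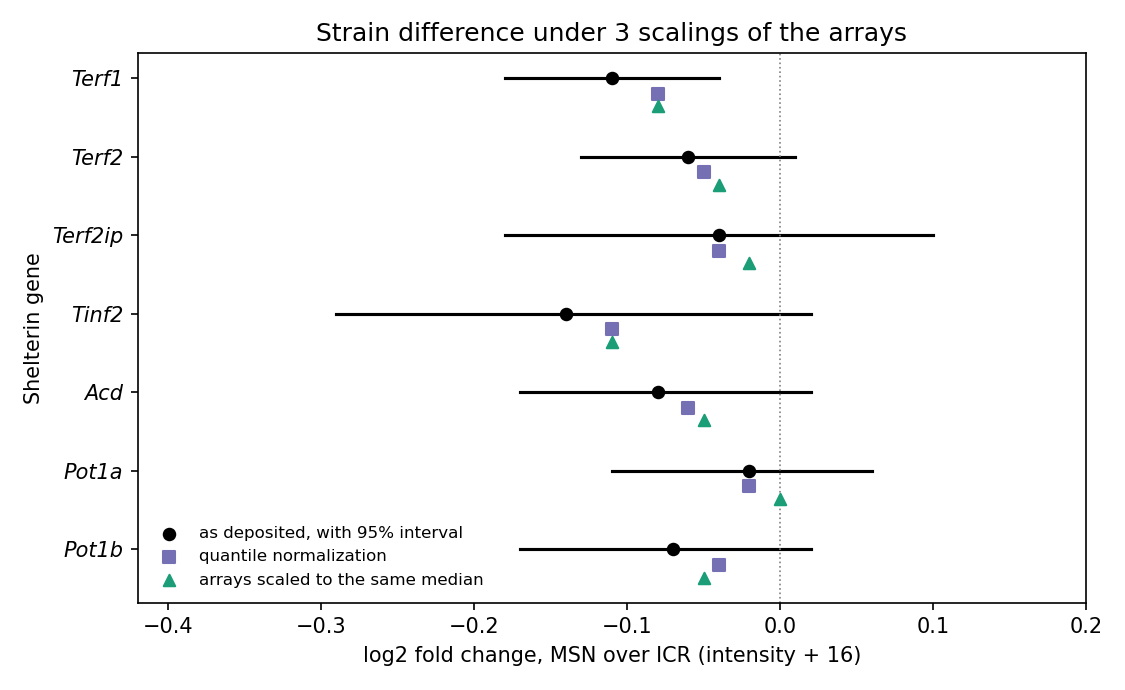
Log2 fold change of MSN over ICR mice on the x axis for each shelterin gene down the y axis, with black points and 95% limma intervals for the arrays as deposited, squares for quantile normalization and triangles for arrays scaled to the same median. The interval leaves out 0 in Terf1 alone, and each square or triangle lies at or right of its black point.

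The spread between mice was set side by side because MSN is inbred and ICR outbred. The coefficient of variation of the members ran from 2.61% in Terf1 to 8.49% in Tinf2 among MSN mice, and from 2.77% in Terf2 to 12.4% in Tinf2 among ICR mice. On the log2 scale the SD was smaller in inbred MSN mice for 5 of 7 genes, against 50.0% of all clusters, and larger in MSN mice for Terf2 and Pot1a. Exact permutation tests of the mean absolute deviation from the strain median gave two-sided p values of 0.245 to 0.909 (0.909 for each gene after adjustment over the 7 genes). By this tested measure the direction was the reverse of the SD in Tinf2, Pot1b and Terf2. The deviation was larger in MSN mice for Tinf2 and Pot1b (by 0.0103 and 0.00438) and smaller for Terf2 (-0.00596, MSN minus ICR).
Pearson's r was above 0 for 20 of 21 pairs of members in MSN mice, with a median of 0.52, and for 9 of 21 pairs in ICR mice, with a median of -0.03. Next, the 2 mice farthest from the median of the first gene of a pair were left out. Then 10 of 21 pairs were above 0 in MSN mice and 11 of 21 in ICR mice. The mice left out differ between first genes, and leaving out extremes narrows the range of that gene. These counts therefore cannot tell a trend shared by all mice from one carried by a few. No pair of the 42 passed adjustment (lowest adjusted p = 0.35, exact permutation over pairings), and the difference between the strains was not tested. The highest value was Tinf2 with Pot1a in ICR mice (r = 0.99, exact p = 0.00833, and rho = 0.89, exact p = 0.0333, n = 6), and r was 0.71 without the 2 mice farthest from the Tinf2 median. Among the mice left out was ICR replicate 3, which stood above the other ICR mice in both genes. It read 482 in Tinf2, with 377 next, and 969 in Pot1a, with 907 next. In MSN mice Terf2ip and Pot1a had r = 0.91 (exact p = 0.0167) and rho = 0.89 (exact p = 0.0333, n = 6), and r was 0.53 without 2 mice.

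The members lie on mouse chromosomes 1 (Terf1), 6 (Pot1a), 8 (Terf2, Terf2ip and Acd), 14 (Tinf2) and 17 (Pot1b). Position was not used to choose the members, and the 5 nearest measured genes on each side of each member, 70 genes in all, gave 0 calls by limma and 4 at an unadjusted p under 0.05, against 0.777% and 12.7% of all clusters. Beside Terf1 the potassium channel gene Kcnb2, its nearest measured neighbor on one side, read 717 ± 37.9 in MSN mice and 798 ± 42.5 in ICR mice (SD, n = 6 each, log2 fold change -0.15, limma adjusted p = 0.155), and it was picked here after its value was seen. Only 3 of the 10 neighbors of Terf1 were below 0.

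Telomere genes outside shelterin were read from 4 lists with 82 of 90 genes measured, of which 1 was higher, 1 lower and 80 were not called, where 0.303% of all clusters were higher and 0.474% lower. Terc, the RNA template of telomerase, read higher in MSN mice. It ran from 459 through a median of 495 to 528 in MSN mice and from 390.1 through 419 to 434 in ICR mice, with no overlap between the strains. Means were 494 ± 28.9 in MSN mice and 417 ± 15.1 in ICR mice (SD, n = 6 each), a 1.18-fold difference (log2 fold change 0.24, 95% interval 0.15 to 0.33, limma adjusted p = 0.0195). Terc kept its place with quantile normalization (log2 fold change 0.26, limma adjusted p = 0.00853) and with the same median (0.26, limma adjusted p = 0.0179), and its call ended without MSN replicate 3 (limma adjusted p = 0.0516) and with the replicate number as a block (limma adjusted p = 0.0782).
No other gene of the telomerase list was called among 14 measured, and the list's median was -0.01. Tert, the protein that copies the Terc template, read 199 ± 14.5 in MSN mice and 201 ± 17.6 in ICR mice (SD, n = 6 each, log2 fold change -0.01, 95% interval -0.14 to 0.11, limma adjusted p = 0.945) and is named after its value was seen. Second by P-value was Shq1, an assembly factor of this RNP (log2 fold change -0.12, limma adjusted p = 0.318).

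The list of the CST complex and telomere replication, which fills in the strand opposite the overhang, had 0 of 18 genes called by limma. At an unadjusted p under 0.05 it held 6 genes, all lower in MSN mice, where 7.5% of all clusters were lower at that level. With quantile normalization 4 of 18 genes were lower at that level, against 5.5% of all clusters, and with the same median 4 of 18, against 4.2%. Ctc1, the large CST subunit, read 676 to 760.3 with a median of 702 in MSN mice and 733 to 840.5 with a median of 815 in ICR mice, and 4 MSN mice lay below all ICR mice (log2 fold change -0.17, limma adjusted p = 0.098). Blm, a helicase that unwinds replication intermediates, had the same log2 fold change of -0.17 (limma adjusted p = 0.161).
Among 26 genes of damage signaling and end repair limma called 0. At an unadjusted p under 0.05 there were 5 lower and 2 higher, where 7.5% of all clusters were lower and 12.7% passed in either direction. Of the 26 genes 15 were below 0 as deposited, against 54.5% of all clusters. With quantile normalization 10 were below 0, against 44.6% of all clusters, and 4 were lower at that level, against 5.5%. With the same median 10 were below 0, against 40.5%, and 3 were lower at that level, against 4.2%. Atr, the kinase that POT1 proteins hold back at telomeres, read 288 through 299 to 315 in MSN mice and 321 through 329 to 340.5 in ICR mice. Its strains did not overlap, yet the log2 fold change of -0.13 did not pass (limma adjusted p = 0.0828), and with quantile normalization 4 MSN mice lay below all ICR mice. Rad50, of the complex that senses broken ends, was at -0.17 (limma adjusted p = 0.158).
In the list of telomere chromatin and shelterin regulators 5 of 24 genes were lower at an unadjusted p under 0.05, where 7.5% of all clusters were lower. With quantile normalization 5 were lower and 1 higher at that level, against 5.5% of all clusters lower. With the same median 2 were lower, against 4.2%, and limma called 0 with either scaling. As deposited 1 of the 24 genes was called, Dnmt1, the maintenance DNA methyltransferase. It read 718 to 801 with a median of 744 in MSN mice and 786 to 885 with a median of 864 in ICR mice. In MSN mice it read lower by 0.18 on the log2 scale (limma adjusted p = 0.0474). That call ended in 5 of 11 other settings (limma adjusted p up to 0.196). It also ended when any of 10 of the 12 arrays was left out (limma adjusted p up to 0.119). Fbxo4, part of a ubiquitin ligase that marks TRF1 for breakdown in human cells, had the lowest value of the 4 lists. It ran from 185 through 249 to 269.8 in MSN mice and from 276 through 292 to 319 in ICR mice without overlap, with a log2 fold change of -0.32 that did not pass (95% interval -0.50 to -0.13, limma adjusted p = 0.118). With either other scaling its strains overlapped and 5 MSN mice lay below all ICR mice.

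**Figure D4:**
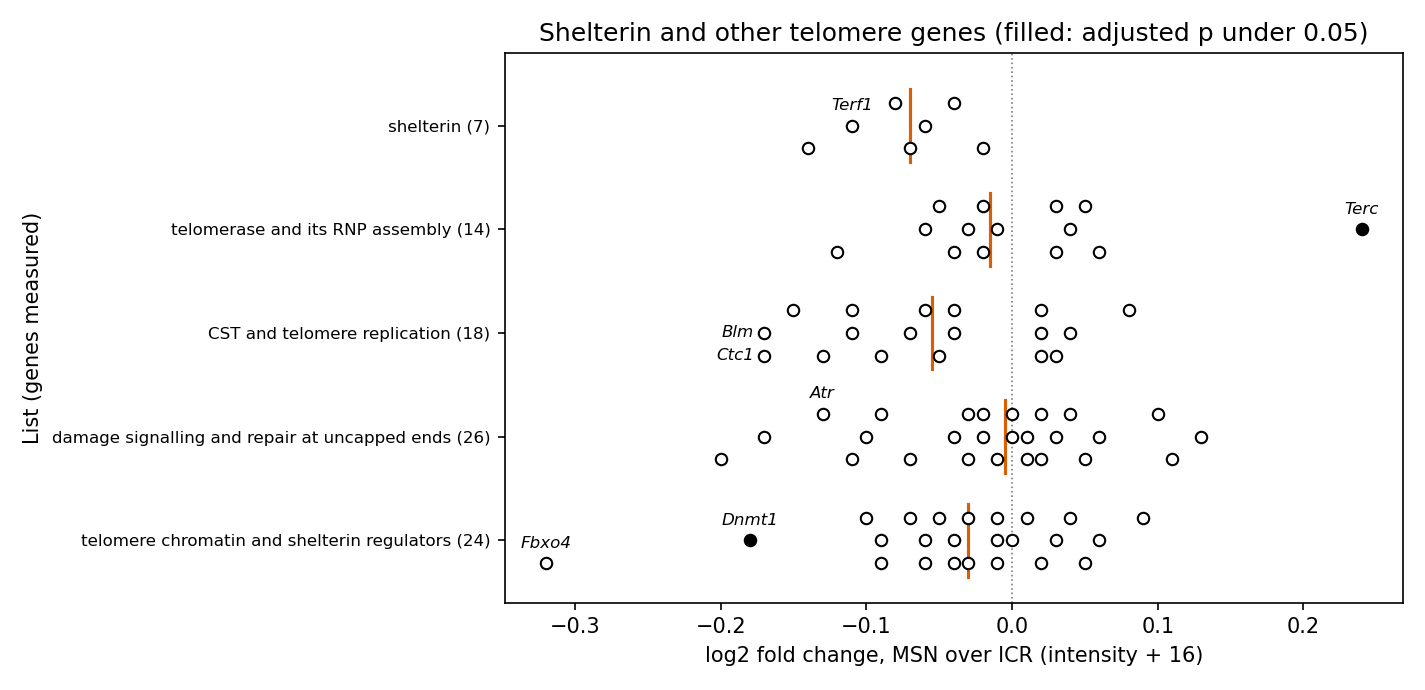
Log2 fold change of MSN over ICR mice on the x axis for the 7 shelterin genes and for the measured genes of 4 telomere lists down the y axis, 1 circle per gene, with orange bars at each list's median and filled circles for a limma adjusted p under 0.05. Terc at 0.24 and Dnmt1 at -0.18 are the filled circles, and every shelterin circle lies left of 0.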

How the data were processed

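Hippocampal RNA of 6 MSN and 6 ICR mice was hybridized to 12 Affymetrix arrays. The deposited intensity values were made by the authors with PLIER and GC-bin background correction in Affymetrix Power Tools 1.12.0, with 1 linear value for a cluster on each array. Probe-level data were not used here, so that the background correction and the weighting of probes stand as deposited. The paper says it cannot preclude that sequence changes where probes bind affected some genes. For the genes named here this was not tested, and the paper's RT-qPCR covered none of them. Of 35556 clusters, 23410 have a gene in the platform annotation and were tested. Strain was the sole factor in the model, run on log2(intensity + 16) by limma 3.58.1 under R 4.3.3. The added 16 understates changes of dim genes, and precision is limited by how many arrays there are. The fit was also run on simulated data, in which the changes put in were larger than that of any shelterin gene. That run therefore cannot show whether changes as small as those of the members would be called. Exact tests, spread and correlations were computed in Python with scipy 1.17.1.
Members and gene lists were chosen with earlier results of these data known. Named beyond the members are called genes and the 2 smallest P-values of each list. Genes like a called member were to be named, but no member was called. The 23 alternatives are 11 settings (other transformations, scalings, filters and variance models, and a block for the replicate number) and 12 fits that leave 1 array out. Batches and scan dates are not given in the sources used here. Motifs were searched on both strands of RefSeq promoters.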

Additional observations from a re-analysis of the deposited data

Results flagged for a closer look

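In 4 of 30 groups of 6 mice, 1 mouse stood further from the others than Dixon's test allows at 95%, a result that chance gives in about 1 in 20 groups. MSN replicate 1 had the highest Terf2 intensity of its strain, 791, with the next MSN mouse at 738. ICR replicate 3 was the highest ICR mouse in both Tinf2 (482, next 377) and Pot1a (969, next 907). ICR replicate 4 was the highest ICR mouse in Pot1b (262, next 236). The groups examined were both strains of the 7 shelterin genes and of 8 named genes from the telomere lists.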

How the results depend on the processing

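No shelterin gene was called in any alternative or without any array, although Tinf2 and Pot1b were not tested among clusters above the median mean. Terf1 stayed below 0 in all 23 alternatives, with log2 fold changes of -0.11 to -0.08 (-0.12 to -0.10 without an array) and a limma adjusted p of 0.0682 to 0.417. The other members kept their direction, except Pot1a, which was 0.003 with arrays scaled to the same median. With that scaling and with quantile normalization the number of members without overlap between strains was 0, and it was 1 to 2 without an array, Terf2 joining when MSN replicate 1 was left out. Calls in the telomere lists, 2 as reported, numbered 4 on untransformed intensities (Terc, Dnmt1, Atr and Rnf168), 1 with all clusters, pseudocount 1, quantile normalization or the same median, and 0 to 3 without an array, with 0 when MSN replicate 3 was left out. The call of Ctc1 was gained without ICR replicate 2 (limma adjusted p = 0.0467) and among clusters above the median mean (limma adjusted p = 0.0485), where the lists held 3 calls. Over all clusters 182 calls became 315 with array weights, 279 with pseudocount 64 and 91 to 210 without an array, with 118 and 93 without ICR replicates 5 and 6 and 103 and 91 without MSN replicates 3 and 4.
The titles number the mice of both strains 1 to 6. Deviations of same-numbered mice from their strain means correlated at -0.126 to 0.125. Mice of unlike number were not compared, so whether a number stands for a shared batch was not tested. With the replicate block, 42 clusters were called over all genes, 0 in the telomere lists and 0 in shelterin. The causes of these shifts were not tested. Rnf168 is named after its values were seen, and signal over background could not be read from these summarised intensities.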
